A study of Saccharomyces cerevisiae with 16 samples.

Results

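The 2 ends of the main axis of H3K18ac variation in the Yeast Metabolic Cycle (YMC) were compared. The first is the oxidative phase (OX), held by time points 3, 4 and 5. The other is a later stretch of low H3K18ac at growth genes, held by time points 11, 12 and 13 and called the trough here. The 2 groups hold 6 of the 16 H3K18ac libraries of the series. The OX samples were taken at 48.75, 48.83 and 48.98 h of continuous culture and the trough samples at 49.98, 50.16 and 50.33 h. All came from 1 Saccharomyces cerevisiae strain, ZKY329, a CEN.PK haploid of mating type MATa that carries SPT7-FLAG::natMX, a tagged subunit of the SAGA acetyltransferase complex, and all were immunoprecipitated with the same H3K18ac antibody (Millipore, 07-354). There was 1 library per time point and no group of another strain or treatment, so the spread given for a group of 3 is the spread between neighbouring times and not between repeats of 1 state. The labels give time points only, and by the sampling scheme of the study time points 12 and 13 belong to the charging phase (RC) and time point 11 to the building phase (RB).

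The YMC is a respiratory oscillation of cells kept at high density with little glucose. In OX the cells respire fast and switch on the genes for making ribosomes and proteins, in RB they divide, and in RC they rely on stored carbohydrate, fatty acid oxidation and stress protection. H3K18ac is an acetyl group on lysine 18 of histone H3, placed mainly by Gcn5 within SAGA, and it marks the nucleosomes around the starts of genes that are being transcribed. Coverage of an H3K18ac library at a gene start is therefore a reading of the chromatin there and not of the RNA made.

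For each of the 6002 nuclear protein-coding genes, the coverage was averaged over the 300 bp on each side of the start codon and divided by the nuclear mean of its library, which gives a relative coverage of 1 at an average base. A gene was taken as measured with a mean window coverage of at least 5 reads per base over the 6 libraries, which 5732 genes reached and 270 did not. Differences are means of log2(relative coverage + 0.1) in OX minus the trough. A gene was called higher or lower in OX when its 3 OX libraries did not overlap the 3 trough libraries and the difference was at least 1, or at most -1, on this log2 scale. The time points were chosen from this same measure, so these differences are a description and carry no test.

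The 6 libraries were similar in depth. Summed coverage corresponded to 6948328 to 8135765 reads of 51 bp, and the mean nuclear coverage was 31.0 ± 2.81 reads per base in OX and 31.8 ± 1.73 in the trough (SD, n = 3 each, exact two-sided permutation test, p = 0.8, where the smallest p of 20 arrangements is 0.1). Mitochondrial DNA, which the choice of time points did not use, had 0.424, 0.272 and 0.401 times the nuclear coverage in OX, against 0.148, 0.403 and 0.444 in the trough (difference 0.0341, exact two-sided permutation test, p = 0.9), with the groups overlapping. No base exceeded 102 reads in any library, a ceiling that compresses differences at genes with high coverage. Bases with 92 reads or more made up 1.29, 2.11 and 1.81% of the nuclear genome in OX, against 0.854, 1.10 and 1.12% in the trough. The files hold no division by H3 and no external standard, so each value is a share of its own library.

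On the first principal component of the measured genes over all 16 libraries, which held 57.9% of the variance, time points 3, 4 and 5 had the 3 lowest scores (-0.20, -0.61 and -0.39). Time points 11, 12 and 13 were at 0.31, 0.35 and 0.24, and time point 14, at 0.25, lay within their range. The name of an opposite end therefore fits time points 11 and 12 best, and time point 13 equally well as time point 14.

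More genes were called higher than lower in OX, and the genes on each side have different jobs. Of 5732 measured genes, 367 (6.4%) were called higher and 73 (1.27%) lower. Without the minimum size, 2030 genes (35.4%) had every OX library above every trough library, 841 (14.7%) had every one below, and 2861 overlapped. The median gene differed by 0.07, the middle 50% of genes lay between -0.14 and 0.32, and the extremes were -1.62 and 2.15. The genes called higher included 124 ribosomal protein genes, 49 of large subunit assembly and 41 of the small subunit processome. The genes called lower included 10 of fatty acid oxidation and peroxisomes and 6 of trehalose and glycogen, while no more than 27 of the 73 were in any of the 26 lists. With the ceiling corrected for, 602 genes were called higher and 225 lower, and the lower calls numbered 23 without time point 4 and 159 without time point 3. A pseudocount of 1 in place of 0.1 left 37 and 0 calls, and quantile normalization left 243 and 79.

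Nearest to the limit, SGD1 was called higher with a difference of 1.0002 and POL5 was left out at 0.999. On the other side YPK2 was called lower at -1.005 and AIM41 was left out at -0.999.

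The gene with the largest difference was DBP2 (YNL112W, R64 chromosome XIV, 413639 to 416281), which encodes a DEAD-box RNA helicase. Its relative coverage, given here and for all genes in the order of the time points, was 1.86, 2.58 and 1.71 in OX, against 0.335, 0.305 and 0.512 in the trough. Every OX library was more than 3 times as high as any trough library, a log2 difference of 2.15. NOP1 (chromosome IV, 427364 to 428347), the methyltransferase of box C/D small nucleolar RNPs that methylates ribosomal RNA, had 2.24, 2.85 and 2.13 in OX, against 0.474, 0.394 and 0.622 in the trough. Its difference was 2.08. NOP58 (chromosome XV, 896825 to 898360), a scaffold protein of the same particles, had 2.26, 3.12 and 2.10 in OX, against 0.487, 0.419 and 0.665 in the trough, a difference of 2.06. The groups of these 3 genes were far apart, and time point 4 was the highest library and time point 12 the lowest in each.

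NSR1, a nucleolar protein needed for processing of pre-rRNA, had 2.51, 2.81 and 2.19 in OX, against 0.500, 0.446 and 0.748 in the trough, a difference of 1.99. RPL22A, a protein of the large ribosomal subunit, had 1.70, 2.18 and 1.79 in OX, against 0.423, 0.297 and 0.540 in the trough, a difference of 1.96. GUA1, the GMP synthase of the guanine nucleotide pathway, had 2.59, 2.98 and 2.03 in OX, against 0.568, 0.447 and 0.813 in the trough, a difference of 1.91. In all 3 genes time point 12 was the lowest of the 6 libraries. The other genes among the 12 largest were GFD2 (2.01), URA7 (1.89), a CTP synthase, REA1 (1.88), the AAA ATPase that strips assembly factors from pre-60S particles, NIP7 (1.88), NOG2 (1.88), a pre-60S GTPase, and SYO1 (1.86), which carries ribosomal proteins into the nucleus. GFD2 and NIP7 share part of their window with SRO9 and PUS1, which read in the other direction and were also called higher. NOP1 shares part of its window with TSC13, URA7 with MRPL16 and REA1 with REX3.

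On the other side, the largest difference belonged to FOX2 (YKR009C, chromosome XI, 454352 to 457054), the multifunctional enzyme of peroxisomal beta-oxidation. Its relative coverage was 1.91, 0.409 and 0.529 in OX, against 2.51, 2.48 and 2.70 in the trough. Time points 4 and 5 were far below the trough and time point 3 was close to it, so that the difference of -1.62 averages unlike libraries. PGM2 (chromosome XIII, 475897 to 477606), the major phosphoglucomutase, which links glucose 6-phosphate to glycogen and trehalose, had 0.735, 0.309 and 0.606 in OX, against 1.56, 1.74 and 1.75 in the trough, a difference of -1.52. In PGM2 all 3 OX libraries were less than 50% of any trough library. CTA1, the peroxisomal catalase, had 1.19, 0.377 and 0.464 in OX, against 1.79, 1.73 and 2.09 in the trough, a difference of -1.48. The remaining genes of the 12 were DCI1 (-1.51), a peroxisomal isomerase homologue, SOL4 (-1.50), a 6-phosphogluconolactonase, ADY2 (-1.48), an acetate transporter, ARO9 (-1.47), an aromatic aminotransferase, CSM4 (-1.46), a meiosis protein, POT1 (-1.46), the 3-ketoacyl-CoA thiolase, PXA2 (-1.43), a fatty acyl-CoA transporter of the peroxisome, CAT2 (-1.43), carnitine acetyltransferase, and GDB1 (-1.42), the glycogen debranching enzyme. Of these 12, 6 belong to the list of fatty acid oxidation and peroxisome genes described further on. YIG1 was passed over because it shares its window with CSM4. PGM2 shares part of its window with YMR105W-A, and POT1 with BNR1.

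**Figure D1:**
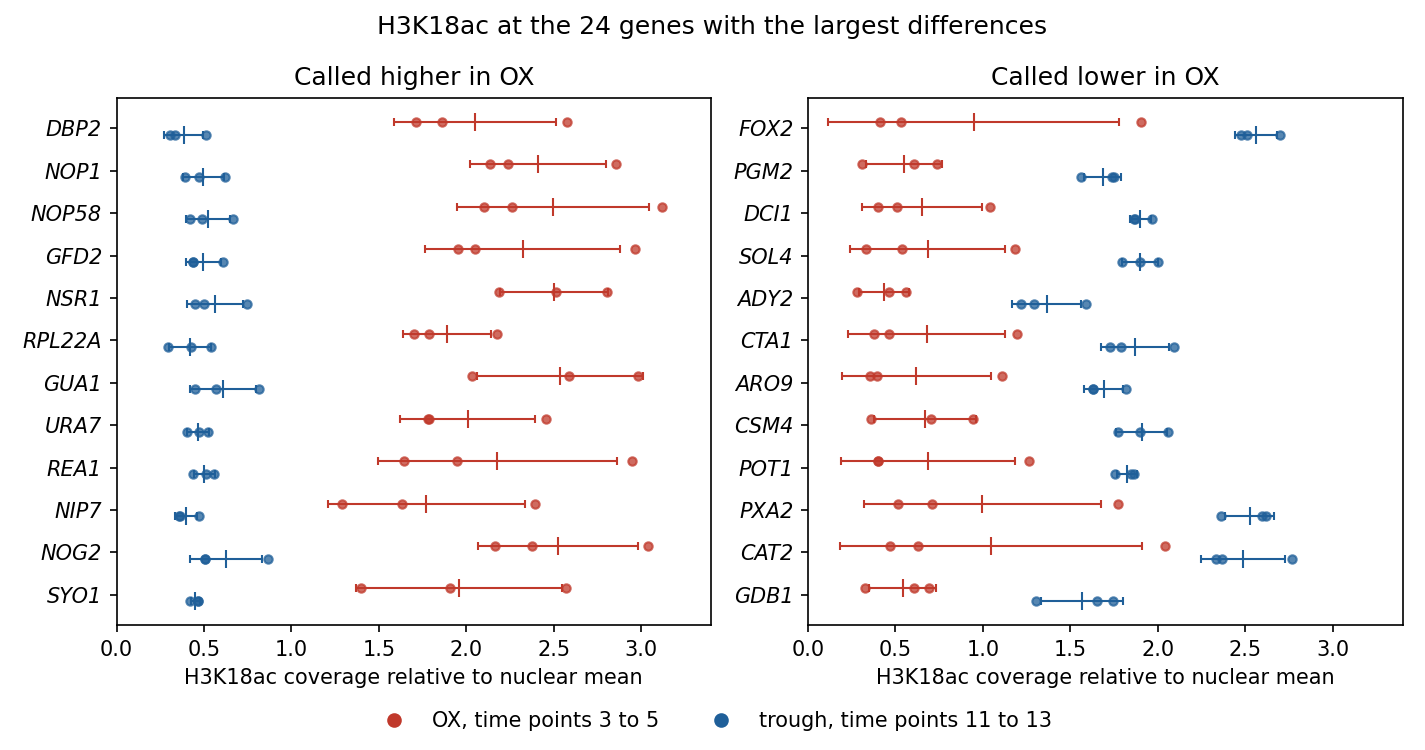
H3K18ac coverage relative to the nuclear mean (x axis) at the 12 genes with the largest positive (left) and the 12 with the largest negative differences (right), where points are libraries and ticks with bars are means ± SD of 3. DBP2 lies at 1.71 or above in OX and at 0.512 or below in the trough, and the OX points of FOX2 are split between 1.91 at time point 3 and 0.409 and 0.529 at time points 4 and 5.

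The genes called higher mostly had the same highest and lowest libraries, a description only, since the time points were chosen for their place on the main axis, and they differed more at time points 6 to 10. Time point 4 was the highest of all 16 libraries in 365 of 367, and the 3 OX libraries were the 3 highest of the 16 in 354 (96.5%). Time point 12 was the lowest of the 16 in 274 and time point 11 in 83. The trough libraries were the 3 lowest of the 16 in 161 (43.9%). Against the trough mean, the median of these genes was 1.18 at time point 3, 1.53 at time point 4 and 1.20 at time point 5. It was 0.69 at time point 6, 0.44 at time point 10, -0.06 at time point 11 and 0.25 at time point 14. Relative to the mean of all measured genes, the middle 50% of these genes spanned -0.62 to 0.33 at time point 6 but 0.55 to 0.78 at time point 4.

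GUA1, NOG2 and NSR1 are those of the 12 with the highest mean in OX, and none of them is a ribosomal protein gene. GUA1 had 1.39 and 1.73 at time points 1 and 2, reached 2.98 at time point 4, and had between 0.904 and 1.14 at time points 6 to 10 and between 0.922 and 1.16 at time points 14 to 16. NOG2 reached 3.04 at time point 4, had 1.32 at time point 6 and 0.855 at time point 10, and was lowest at time points 11 and 12 with 0.505 and 0.507. NSR1 was already at 1.80 at time point 2 and returned to 1.35 at time point 16. In GUA1 and NSR1 every other library was above those of the trough, and time points 1 and 2 were the highest after OX.

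The genes called lower behaved otherwise. Time point 4 was the lowest of the 16 libraries in 66 of 73, while time point 3 was the OX library nearest the trough in 68. Against the trough mean their median was -0.42 at time point 3, -1.76 at time point 4 and -1.30 at time point 5, although time points 3 and 4 were taken at 48.75 and 48.83 h. At time points 6 to 10 it stayed between -0.78 and -0.56, and it was -0.02 at time point 11. The trough was not their maximum. Time point 14 was the highest of the 16 libraries in 55 of the 73, and the trough libraries were the 3 highest in 0.

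Of the genes with the highest trough levels, FOX2 had 2.45 and 2.42 at time points 1 and 2, between 0.615 and 1.01 at time points 6 to 10, and 2.77 at time point 14. CAT2 had 2.04 at time point 3 and 0.468 at time point 4, against 2.37, 2.33 and 2.77 in the trough, and had climbed to 1.30 by time point 10. PXA2 had 1.77 and 0.512 at the same OX time points, against 2.59, 2.36 and 2.62 in the trough. In these 3 genes the steepest drop lay between time points 3 and 4 and the steepest climb between time points 10 and 11.

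Genes of ribosome assembly were higher in OX almost without exception. Over all measured genes, 6.4% were called higher and 35.4% had every OX library above every trough library, and the list counts below are read beside these shares. The small subunit processome is the large particle that folds and cleaves the pre-rRNA of the 40S subunit. All 59 of its measured genes had every OX library above every trough library, 41 were called higher and 0 lower, and the median was 1.17, against 0.07 over all measured genes. After NOP1 and NOP58 came NOP56 (1.78), a partner of NOP58 in the same particles, and RRP5 (1.77), an RNA-binding protein needed for both subunits. Of 68 large subunit assembly genes, 67 did not overlap in this direction and 49 were called higher, with a median of 1.23. REA1, NIP7 and NOG2 were joined by NOP2 (1.85), an rRNA methyltransferase whose window overlaps that of GCD10. The exception was LOC1, a nucleolar protein that also binds ASH1 mRNA, with 2.50, 2.21 and 2.11 in OX, against 2.13, 2.07 and 2.41 in the trough.

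RNA polymerase I makes the large pre-rRNA, and RNA polymerase III makes 5S rRNA and tRNAs. Of their 37 genes and factors, 11 were called higher, 26 did not overlap upwards and 2 downwards, and the median was 0.60. The 4 largest were RPA43 (1.82), RPA190 (1.80) and RPA49 (1.62), which are subunits of polymerase I, and RRN11 (1.58), a polymerase I initiation factor. RPA190, the largest subunit, had 2.20, 3.14 and 2.21 in OX, against 0.587, 0.558 and 0.807 in the trough.

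Ribosomal protein genes had a median of 1.30, close to the 1.23 of large subunit assembly, and the order of these lists was the other way without time point 3 (1.33 against 1.36) and without time point 12 (1.18 against 1.19). Of 138 genes, 124 were called higher and 0 lower, and 137 did not overlap in this direction. RPL22A (1.96) was followed by RPS29B (1.82), RPS26B (1.81) and RPL9A (1.81). RPS29B had 2.32, 2.95 and 2.46 in OX, against 0.656, 0.590 and 0.730 in the trough, so the groups were wide apart. In 85 of the 138 genes the mean coverage was above 51, which is 50% of the ceiling, and with the ceiling corrected for the median was 1.86.

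Most yeast ribosomal proteins are encoded by a pair of nearly identical genes, and the authors discarded reads that map to several places, so coverage inside such genes comes from the parts that differ. In 59 such pairs both genes were called higher in 48, 1 gene in 10 and neither in 1. The differences of the A and B copies lay a median of 0.19 apart, but across pairs they were hardly correlated (r = 0.037). The pair furthest apart was RPS22, with 1.74 at RPS22A and 0.57 at RPS22B. RPS22B had 1.07, 1.61 and 1.36 in OX, against 0.946, 0.871 and 0.770 in the trough, without overlap. RPL15B was the 1 ribosomal protein gene whose groups overlapped, with 2.00, 1.85 and 1.71 in OX, against 1.79, 1.68 and 1.74 in the trough. Its copy RPL15A had 1.43, 1.69 and 1.30 in OX, against 0.589, 0.425 and 0.695 in the trough.

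The genes for ribosomal proteins and for assembly factors, which were alike in their difference between OX and the trough, took different paths between these ends. Relative to the mean of all measured genes, the 127 assembly genes of both subunit lists stood at -0.03, 0.52 and 0.26 at time points 3, 4 and 5, whereas the 138 ribosomal protein genes stood at 0.36, 0.64 and 0.44. At time points 6 to 10 the assembly genes were already down to between -0.57 and -0.44, and the ribosomal protein genes were still between 0.02 and 0.36. At time points 11, 12 and 13 the assembly genes had -0.91, -0.89 and -0.72 and the ribosomal protein genes -0.72, -0.89 and -0.47. Most of the assembly difference thus lay between OX and time points 6 to 10, with a median of 0.89, against 0.32 from there to the trough. For ribosomal protein genes these medians were 0.32 and 0.98. These steps were not computed with the ceiling corrected for. Mean coverage was above 51 in 85 of the 138 ribosomal protein genes. That was so in 12 of 59 processome genes and 15 of 68 large subunit assembly genes. The ceiling compresses differences at such coverage, and how far it shaped these steps was not tested. Between time points 10 and 11 alone, taken at 49.82 and 49.98 h, the median ribosomal protein gene differed by 0.74 and the median assembly gene by 0.31.

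**Figure D2:**
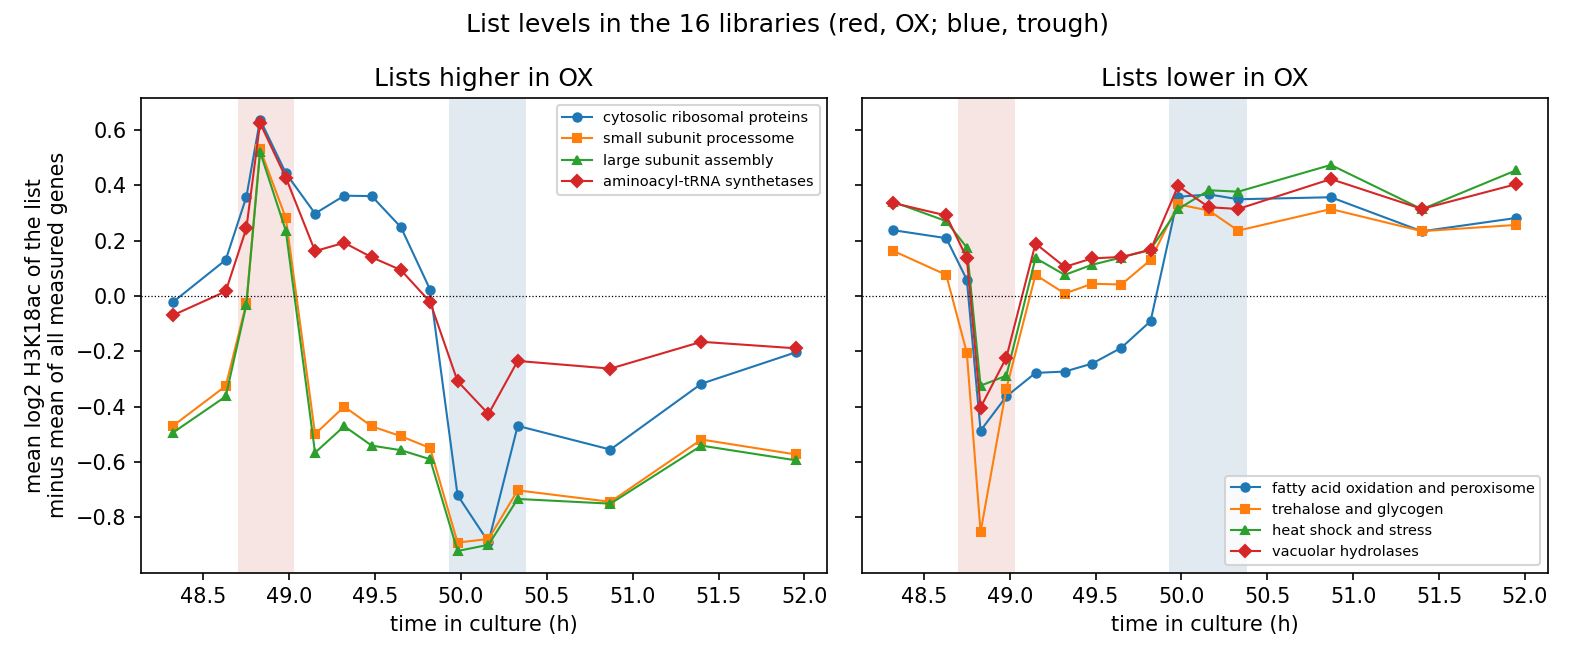
Mean log2 H3K18ac of 4 lists higher in OX (left) and 4 lists lower in OX (right), minus the mean of all measured genes, against hours of culture for the 16 libraries, with OX shaded red and the trough shaded blue. The small and large subunit assembly lists drop between time points 5 and 6, ribosomal proteins drop between 10 and 11 (0.02 and -0.72), and the peroxisome list stays low from time point 4 to 10 while trehalose and glycogen genes are below 0 in OX alone.

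Genes that feed translation were higher in OX to a smaller degree. Of 44 translation factor genes, 14 were called higher, 36 did not overlap upwards and 1 downwards, with a median of 0.83. GCD10 (1.85), a subunit of the tRNA m1A methyltransferase that was first described as an initiation factor, came before YEF3 (1.54), elongation factor 3, RLI1 (1.38), a ribosome recycling factor, and PRT1 (1.32), a subunit of eIF3. YEF3 had 2.27, 2.55 and 2.08 in OX, against 0.759, 0.510 and 0.968 in the trough. Of 22 cytosolic aminoacyl-tRNA synthetase genes, which load tRNAs with amino acids, KRS1 was under the coverage minimum, 9 of the other 21 were called higher and 20 did not overlap upwards, with a median of 0.92. They were led by YHR020W (1.60) and DED81 (1.29), which share a window, and by THS1 (1.26) and CRS1 (1.25). CRS1 shares part of its window with RPA49, a gene of the polymerase list also called higher, and THS1 with AIR1.

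Biosynthesis of the building blocks showed smaller differences with a few steep ones among them. Of 40 purine and pyrimidine genes, 6 were called higher and 28 did not overlap upwards, with a median of 0.40. Next to GUA1 and URA7 stood MIS1 (1.68), a mitochondrial enzyme of one-carbon metabolism, and PRS3 (1.34), a subunit of the synthetase of phosphoribosyl pyrophosphate. Of 66 amino acid synthesis genes, 44 did not overlap upwards and the median was 0.39, but the 3 called higher, LEU9 (1.66), ILV5 (1.07) and ILV1 (1.02), were 4.55%, a smaller share than the 6.4% of all measured genes. ARO9 was the 1 gene of that list called lower. In 50 of these 66 genes the mean coverage was above 51, where the ceiling compresses differences. Of 31 sulfur and methionine genes, SAM1 (1.54), an S-adenosylmethionine synthetase, and MUP1 (1.23), the high-affinity methionine permease, were called higher (6.45%) and 11 did not overlap upwards, shares like the 6.4% and 35.4% of all measured genes, and the median was 0.33. SAM1 had 2.21, 2.77 and 2.10 in OX, against 0.823, 0.513 and 0.936 in the trough. Among 40 nitrogen genes the calls went both ways, with HIP1 (1.13), a histidine permease, higher and AGP2 (-1.03), a plasma membrane regulator of carnitine uptake, and CAR2 (-1.01), ornithine transaminase, lower. The calls were 2.5% higher and 5% lower, against 6.4% and 1.27% of all measured genes. The list median was 0.18, and 15 genes did not overlap upwards and 3 downwards, against 35.4% and 14.7% of all measured genes.

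**Figure D3:**
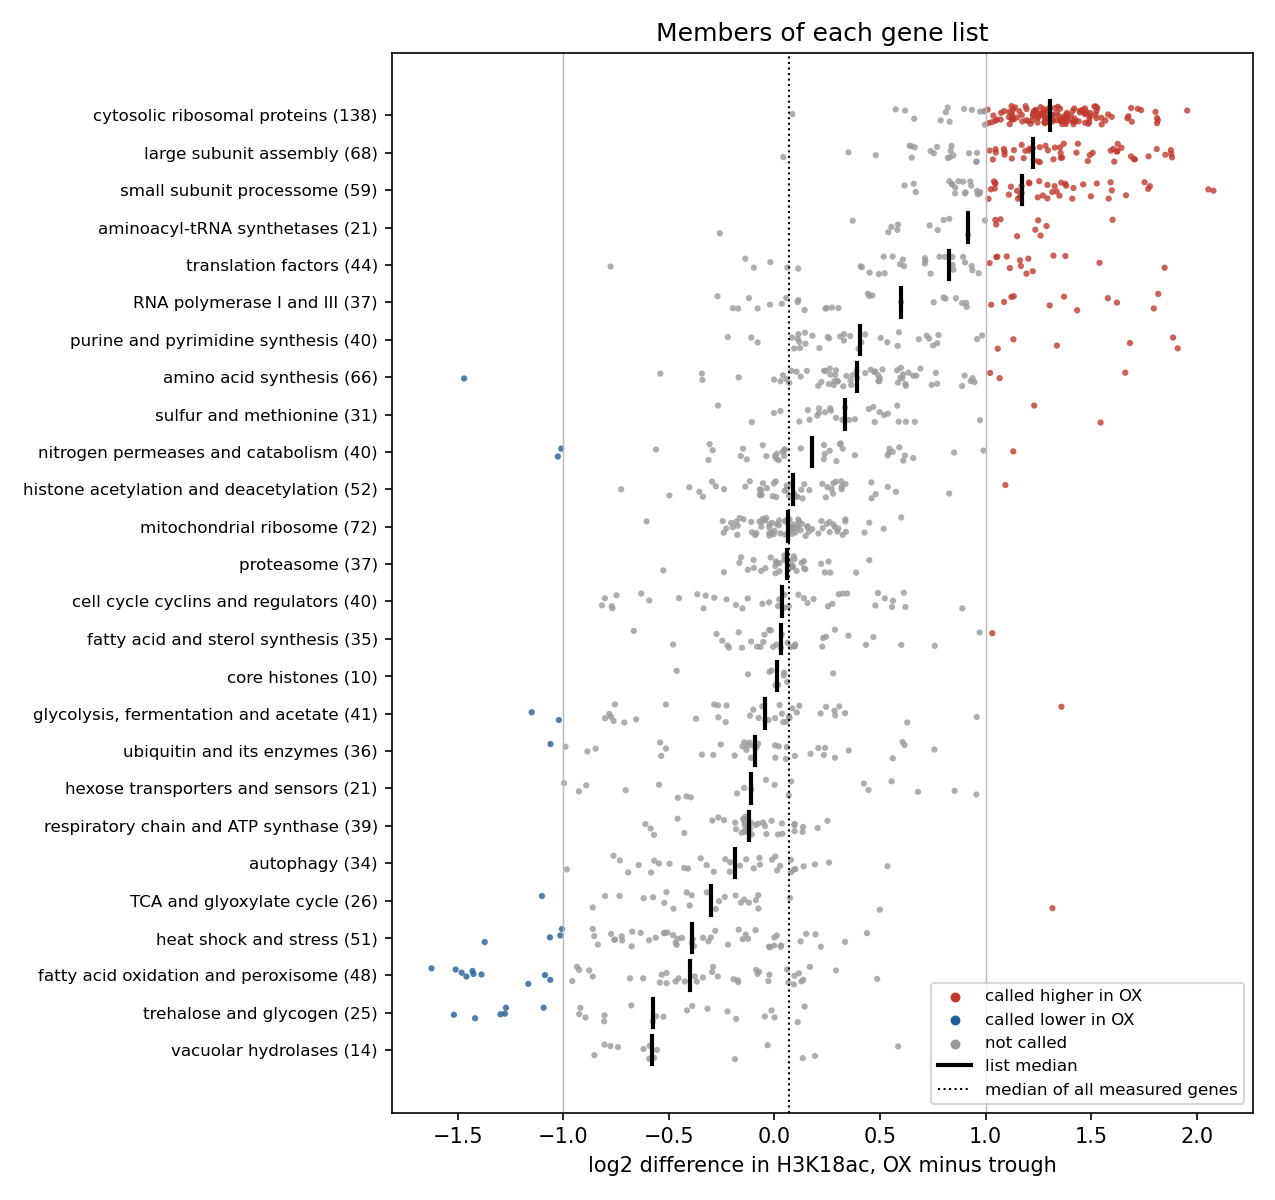
Log2 difference of OX minus trough (x axis) for each measured member of the 26 gene lists (rows, number measured in brackets), with called genes in red and blue, the list median as a black bar and the median of all measured genes, 0.07, as a dotted line. Medians run from 1.30 for ribosomal proteins to -0.58 for trehalose and glycogen and for vacuolar hydrolases.

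Fatty acid oxidation in yeast takes place in the peroxisome, and its acetyl units leave as acetylcarnitine or through the glyoxylate cycle. Over all measured genes, 1.27% were called lower, 14.7% did not overlap downwards and 35.4% upwards. Of 48 genes of oxidation and peroxisomes, 10 (20.8%) were called lower in OX and 0 higher, 25 did not overlap downwards and 5 upwards, and the median was -0.40. All 10 were enzymes or transporters: FOX2, DCI1, CTA1, POT1, PXA2, CAT2, POX1 (-1.39), the acyl-CoA oxidase, FAA2 (-1.17), an acyl-CoA synthetase, CRC1 (-1.09), the mitochondrial carnitine carrier, and PXA1 (-1.06), the partner of PXA2. POX1 had 2.17, 0.497 and 0.509 in OX, against 2.23, 2.28 and 2.56 in the trough. Its time point 3 was barely below the trough. When the list was divided by symbol after its values were seen, the 27 PEX genes, which build the peroxisome, had a median of -0.17 with 0 called, and the other 21 genes a median of -0.96. These 21 had medians of -0.31, -1.40 and -1.26 against the trough at time points 3, 4 and 5, and all 21 were lower at time point 4 than at time point 3. They remained at -1.01 over time points 6 to 10, and 20 of them were higher at time point 11 than at time point 10, by a median of 0.78.

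Trehalose and glycogen, the stored carbohydrates of yeast, gave a median of -0.58 over 25 genes. Of these, 6 were called lower, 18 did not overlap downwards and 1 upwards, against 1.27%, 14.7% and 35.4% of all measured genes. The called genes were PGM2, GDB1, GPH1 (-1.30), glycogen phosphorylase, GSY1 (-1.28), a glycogen synthase, GLC3 (-1.27), the branching enzyme, and TSL1 (-1.09), a subunit of trehalose synthase. Both synthesis and breakdown of glycogen were thus among them. GPH1 had 1.06, 0.499 and 0.791 in OX, against 2.12, 1.91 and 1.96 in the trough, and GSY1 had 1.22, 0.453 and 1.06 in OX, against 2.16, 2.28 and 2.14 in the trough. In contrast with the genes of fatty acid oxidation, time point 5 was closer to time point 3 than to time point 4 in GSY1. The list recovered soon after OX, since 24 of the 25 genes were higher at time point 6 than at time point 5, by a median of 0.33, and at time points 6 to 10 the median against the trough was -0.25. Without genes above a mean coverage of 51, the median of OX minus trough was -0.89, and with the ceiling corrected for it was -0.99.

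Stress genes followed with a median of -0.39 over 51 measured members of 52, HSP32 being under the minimum. The shares of all measured genes were 1.27% called lower, 14.7% not overlapping downwards and 35.4% upwards. CTT1 (-1.37), the cytosolic catalase, HSP12 (-1.06), a small membrane-stabilizing protein, and the small heat shock proteins HSP26 (-1.01) and HSP42 (-1.01) were called lower, 20 genes did not overlap downwards and 1 upwards. CTT1 had 1.87, 0.493 and 0.707 in OX, against 2.18, 2.51 and 2.65 in the trough. HSP104, the disaggregase, was not called, with 2.04, 1.10 and 1.05 in OX, against 2.06, 2.12 and 2.65 in the trough. Vacuolar hydrolases had a median of -0.58 over 14 measured genes with 0 called, 6 not overlapping downwards and 2 upwards, and 34 autophagy genes had a median of -0.19 with 0 called and 9 and 2 not overlapping in these directions. The 36 genes of ubiquitin and its enzymes held 1 call, UBP15 (-1.06), a deubiquitinase.

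Several large groups of genes had medians near that of all genes, although members of some differed in opposite directions. Respiratory chain and ATP synthase genes of the nucleus, 39 in number, had a median of -0.12, with 0 called and 29 below 0. Of these 39, 1 did not overlap upwards and 6 downwards, against 35.4% and 14.7% of all measured genes. The 72 mitochondrial ribosome genes were at 0.06 with 0 called, far from the 1.30 of the cytosolic ribosome, with 23 not overlapping upwards and 4 downwards, the first near the 35.4% of all genes. The 37 proteasome genes were at 0.06 and had 3 members without overlap. Mean coverage was above 51 in 34 of the 39 respiratory genes and 59 of the 72 mitochondrial ribosome genes. That was so in 34 of the 37 proteasome genes and 85 of the 138 cytosolic ribosomal protein genes. The ceiling compresses differences at such coverage, so the small medians and the lack of calls in these lists carry this limit. Cell cycle regulators were at 0.04 with 0 of 40 called, 13 not overlapping upwards and 9 downwards. Their differences ran from -0.82 to 0.89. CLN3, the first G1 cyclin of the cycle, was not called and is given outside the rules for naming genes. It had 2.21, 2.75 and 2.19 in OX, against 1.48, 1.42 and 1.66 in the trough, a difference of 0.61. Core histone genes were at 0.01, with 8 of 10 overlapping. Hexose transporters and sensors were at -0.11 with 0 of 21 measured genes called, 5 not overlapping upwards and 7 downwards. Fatty acid and sterol synthesis genes were at 0.03 with 1 of 35 called, TSC13, which shares its window with NOP1. Of 52 genes of histone acetylation and deacetylation, 1 was called higher, ELP3 (1.09), the acetyltransferase subunit of Elongator, which also modifies tRNAs. GCN5, the acetyltransferase for this mark, had 1.53, 1.60 and 1.52 in OX, against 1.38, 1.27 and 1.47 in the trough, a difference of 0.17.

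In central carbon metabolism, the TCA and glyoxylate list had a median of -0.30 over 26 genes. Of these, 9 did not overlap downwards and 2 upwards, against 14.7% and 35.4% of all measured genes. CIT3 (-1.10), a mitochondrial citrate and methylcitrate synthase, was called lower, with 1.77, 0.665 and 0.867 in OX, against 2.41, 2.09 and 2.38 in the trough. Some isoenzymes of the same reaction differed from each other, and the pairs given here were chosen after their values were seen.

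PFK27 and PFK26 both make fructose 2,6-bisphosphate, the activator of glycolysis. PFK27 was called higher (1.36) with 2.06, 2.50 and 2.08 in OX, against 0.765, 0.672 and 0.987 in the trough. PFK26 had 2.03, 0.734 and 1.08 in OX, against 2.21, 2.00 and 2.19 in the trough, with time point 3 inside the range of the trough. In the same list of 41 genes of glycolysis, fermentation and acetate, which had a median of -0.04, ACS1 (-1.15), the acetyl-CoA synthetase used without glucose, and GPD1 (-1.02), a glycerol 3-phosphate dehydrogenase, were called lower. Their isoenzymes ACS2 and GPD2 were at 0.02 and 0.07, with overlapping groups.

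Among other isoenzymes, LEU9 (1.66) had 2.27, 2.79 and 2.21 in OX, against 0.625, 0.565 and 0.941 in the trough, while LEU4, the other isopropylmalate synthase, had 2.64, 2.35 and 2.24 in OX, against 2.26, 2.14 and 2.70 in the trough. ARO9 was called lower and ARO8, the other aromatic aminotransferase, was at 0.59, with 2.44, 2.98 and 2.32 in OX, against 1.61, 1.66 and 1.76 in the trough. PGM2 (-1.52) and GSY1 (-1.28) were further below the trough than PGM1 (-0.22) and GSY2 (-0.53).

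Of the 367 genes called higher, 264 (71.9%) were in a list, and of the 73 called lower 27 (37.0%) were, against 1123 (19.6%) of all measured genes. Outside the lists, the genes called higher included PRP43 (1.74), a helicase of pre-rRNA processing and splicing, GAR1 (1.76) and CBF5 (1.59), subunits of the pseudouridine synthase of box H/ACA particles, SSB1 (1.74), the Hsp70 that binds nascent chains on the ribosome, FUR4 (1.57), the uracil permease, and AAH1 (1.56), adenine deaminase. Regulators were among them too, IFH1 (1.27), a coactivator of ribosomal protein genes, and TOD6 (1.68), a repressor of ribosome biogenesis genes. TOD6 had 2.52, 3.09 and 2.45 in OX, against 0.684, 0.724 and 0.891 in the trough. Outside the lists, the genes called lower included GID11 (-1.33), a substrate receptor of the GID ubiquitin ligase, ICL2 (-1.13), the 2-methylisocitrate lyase, and USV1 (-1.02), a zinc finger factor of growth on non-fermentable carbon. These genes were picked from the calls after their values were seen.

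The called genes were chosen for their start window, so that their average difference had to be large there, and their profiles are given for its shape only. Over all 5732 measured genes the log2 ratio was largest 170 bp into the gene, at 0.19, and it was 0.03 at 990 bp upstream and -0.07 at 990 bp into the gene. Over the 367 genes called higher, the mean relative coverage peaked at 2.73 in OX, 50 bp into the gene, while in the trough it reached no more than 1.08, 710 bp upstream. The log2 ratio of the means was largest 210 bp into the gene, at 1.55, and was 0.80 at 490 bp upstream, 0.99 at 490 bp into the gene and 0.19 at 990 bp. Over the 73 genes called lower, the peak was 1.14 in OX and 2.54 in the trough, both 30 bp into the gene, and the ratio was lowest 110 bp upstream, at -1.20. In the trough the average profile of the genes called higher had a low peak at the start that stayed under its upstream flank, and in OX that of the genes called lower was barely above its upstream flank. Windows of 111 genes called higher and 23 called lower overlapped the window of another gene, and 52 and 14 of these had a called neighbour, so some calls share their bases.

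**Figure D4:**
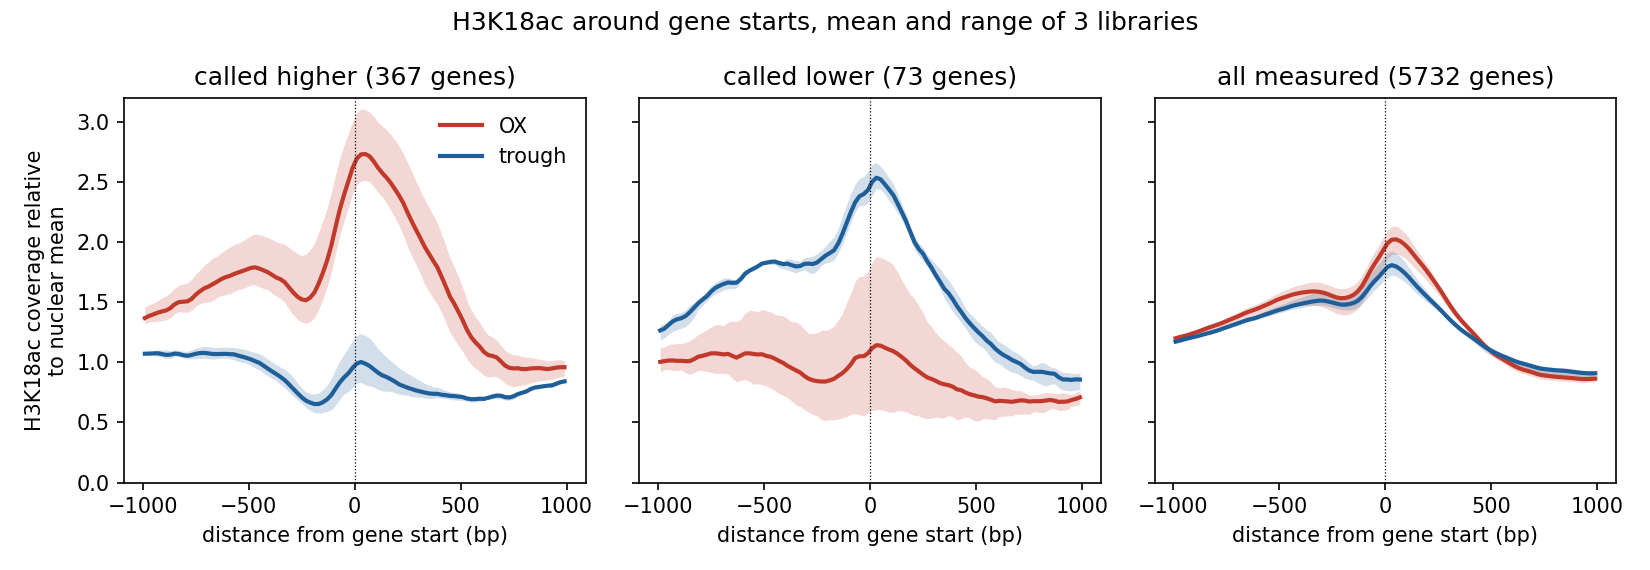
Mean H3K18ac coverage relative to the nuclear mean against distance from the gene start (bp), for genes called higher, genes called lower and all measured genes, with lines for the mean and bands for the range of the 3 OX (red) and 3 trough (blue) libraries. The OX peak of 2.73 at the 367 genes faces a trough profile of at most 1.08, and the OX band of the 73 genes called lower is wide because time point 3 lies near the trough.

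The far ends of the genes did not follow their starts. In the 2146 measured genes over 1500 bp long, with no coverage minimum at the far end, the last 300 bp differed by a median of -0.24. At that end 209 of these genes (9.74%) did not overlap upwards and 756 (35.2%) downwards. In the 128 of them called higher, the start window had a median of 1.32 and the last 300 bp of -0.29, with 9 not overlapping upwards and 48 downwards. In the 35 called lower the medians were -1.15 and -0.42, with 0 and 15. The far ends of called genes in both directions thus had medians below 0, as did genes at large. DBP2, for example, had 2.15 at its start and 0.23 at its end, and NOP58 had 2.06 and -0.30.

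Coverage in OX was more concentrated at gene starts than in the trough. Over the 2240 genes longer than 1500 bp, the start windows had 2.26, 2.21 and 1.89 times the coverage of the last 300 bp in OX, against 1.72, 1.61 and 1.86 in the trough, with means of 2.12 ± 0.198 and 1.73 ± 0.123 (SD, n = 3 each). Every OX library was above every trough library, but time point 5 exceeded time point 13 by little. Outside OX, the ratio at time points 1 (2.10), 2 (2.17), 14 (2.06) and 16 (1.93) was also above that of time point 5. It was 1.63 at time point 10.

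**Figure D5:**
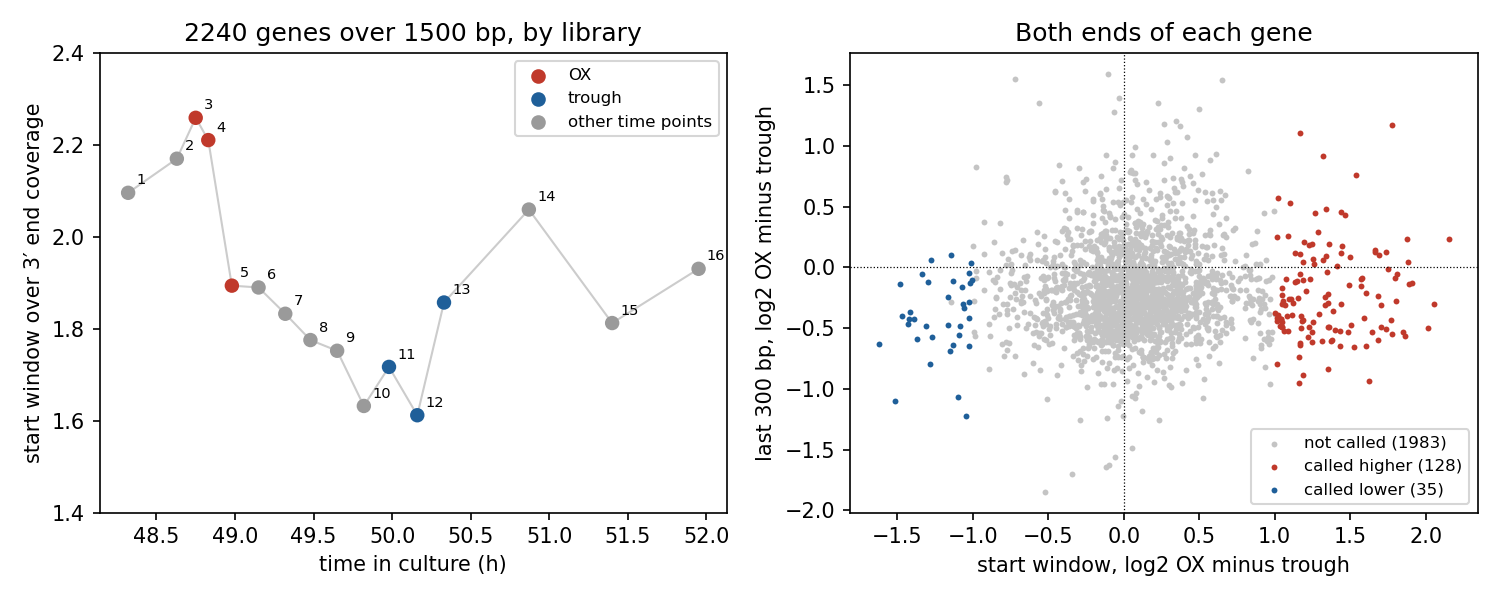
Left, coverage of start windows over that of the last 300 bp for 2240 genes against hours of culture, 1 point per library, numbered by time point, with OX in red and the trough in blue; right, log2 difference of OX minus trough at the last 300 bp (y axis) against that of the start window (x axis), 1 point per gene. The OX ratios of 2.26, 2.21 and 1.89 lie above the trough ratios of 1.72, 1.61 and 1.86, and called genes of both directions sit mostly below 0 at their far end.

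The 3 libraries of a group were not alike. Across genes, which are not independent replicates, the centred values of time points 4 and 5 were correlated with r = 0.832, those of 3 and 4 with 0.680 and those of 3 and 5 with 0.422. In the trough, time points 11 and 12 had 0.885, 12 and 13 had 0.811 and 11 and 13 had 0.711. Time point 3 thus stood apart from time point 5, and among the genes called lower it carried the smallest part of the difference.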

How the data were processed

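H3K18ac was measured by ChIP-seq in 16 samples, 1 per time point. Per the labels and the methods of the study, the authors trimmed reads (Trimmomatic 0.32), mapped them (the study names Bowtie, the submitters' processing notes name STAR), discarded multimapped and duplicated reads with SAMtools and deposited the coverage signal as whole reads over each base (bedtools), without correction for depth or H3. Samples were grouped by labelled time-point number. Gene starts came from RefSeq R64 coding regions. The median window held 52.9 reads per base, or 622 reads (counting error 4.01%), and the minimum of 5 held 59 reads (13.0%).

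The members, gene lists and time points were chosen with earlier results of these data known. Named genes were the 12 with the largest differences per direction, passing over overlapping windows, up to 4 called members per list, members called against their list, and those nearest the limits. Some other genes, such as CLN3, HSP104 and GCN5, were given outside these rules and do not stand for their lists. For the course over 16 libraries, 3 per direction with the highest level were taken. Calls and medians were computed in Python 3.11.15 (numpy 2.4.6, pandas 2.3.3, scipy 1.17.1, matplotlib 3.10.9) and tested on simulated data. Alternatives covered the pseudocount, coverage minimum, scaling, window, ceiling and each library left out. Promoter motifs, RNA-seq and H3 were not used here. Results for some genes are not reported here.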

Additional observations from a re-analysis of the deposited data

How the results depend on the processing

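Time points of a group are not repeats, and no interval covers differences between cultures. The 66 genes named by largest difference or by list kept their sign in each of the 16 alternatives that measured them. All 66 were called without overlap, so leaving out a library, another pseudocount or a coverage filter could not change their sign. Only the alternatives of scaling, window and ceiling could have changed it. Those with a mean coverage of 51 or more, such as FOX2 and HSP12, were not measured in the setting under 51. Of 367 genes called higher and 73 lower, a pseudocount of 1 left 37 and 0, because it shrinks differences at low values. Quantile normalization gave 243 and 79, median-of-ratios scaling 313 and 96, genes with a mean coverage under 51 (2582 tested) 230 and 37, and the correction for the ceiling 602 and 225, including all 367 and all 73. Leaving out single libraries gave 286 to 422 higher and 23 to 159 lower, with 23 without time point 4 and 159 without time point 3. The median of all genes was -0.0165 with median-of-ratios scaling and -0.0487 with quantile normalization. Medians of small subunit processome genes were 0.69 with a pseudocount of 1, 0.94 with quantile normalization and 1.46 with the ceiling correction, those of large subunit genes 0.75 and 1.65, and those of ribosomal proteins 0.82 and 1.86, with the first and last of these settings. The ceiling correction also gave -0.76 for fatty acid oxidation, -0.99 for trehalose and glycogen (-0.89 under a mean coverage of 51), and a start to 3′ end ratio difference of 0.57. The difference in mitochondrial to nuclear coverage lay between -0.0575 (without time point 11) and 0.0902, and that in nuclear mean coverage between -2.35 and 0.153, being above 0 without time point 3, 4 (0.00982) or 12 (0.0173). No paired analysis was possible because the time points of the groups carry no shared replicate numbers in the labels.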
